A study of Mus musculus with 6 samples.

Results

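Of the 18268 genes in the deposited expression table, 9 were described that encode secreted proteins of the bone morphogenetic protein (BMP) and transforming growth factor beta (TGF-β) pathways. They were the rows whose gene symbol was Bmp2, Bmp4, Bmp5 or Bmp7 (4 BMP ligands), Grem1 or Chrdl1 (2 BMP antagonists), and Tgfb1, Tgfb2 or Tgfb3 (3 TGF-β ligands). The samples were colorectal tissue from adult male C57BL/6 mice whose colitis was induced over 7 days with dextran sulfate sodium (DSS), which damages the colonic epithelium. One group received berberine (BBR, an isoquinoline alkaloid, 3 samples) and the other received sulfasalazine (SASP, an anti-inflammatory drug used for ulcerative colitis, 3 samples). Either drug was given by gavage over 6 days, and the doses of the drugs were not the same. All 6 samples had DSS and a drug, so each difference below sets one drug against the other. Healthy mice and colitis mice without a drug were not analysed here. The paper names rectal samples for its berberine sequencing and colon samples for its sulfasalazine sequencing. Whether the gut region differed between the groups compared here is not known. Such a difference could not be told apart from the drug.

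BMPs and TGF-βs are dimeric ligands that bind paired serine/threonine kinase receptors, which phosphorylate SMAD proteins that then regulate genes in the nucleus. In the colon, BMP activity is high toward the mucosal surface and favours differentiation, while antagonists made by stromal cells around the crypt base keep BMP activity low beside the stem cells. TGF-βs are secreted in a latent form and, once activated, restrain immune cells and induce extracellular matrix genes in fibroblasts.

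The values were FPKM, that is, fragments scaled by transcript length and by the sequencing depth of the library, so levels of different genes can be compared per length. The files gave no read counts. From genes with 1 presumed read, the depth was roughly 16400000 to 18200000 reads per sample, and between them the 9 genes had from about 38 reads (Tgfb2 in SASP sample 1) to about 3200 reads (Bmp2 in SASP sample 3). BBR sample 3 stood apart: its log2 values correlated across genes with the other BBR samples at r = 0.953 and 0.949, against 0.987 between those samples and 0.982 to 0.989 within SASP. All 8 colon markers were detected in every sample, with Slc26a3, the surface chloride/bicarbonate exchanger, at 487 to 1004 FPKM. Not all colon markers were alike between groups: Cdx2, an intestinal transcription factor, was at 11.8 to 22.9 FPKM in BBR and 3.74 to 9.13 FPKM in SASP (limma adjusted p = 0.0422), and Car1, a colonic carbonic anhydrase, at 1200 to 2345 FPKM and 71.8 to 853 FPKM (limma adjusted p = 0.0950). Their part in the results below was not tested. The sources used here do not say that each sample came from its own mouse, so p-values measure the spread between these samples. In bulk tissue, fewer cells of a type and less RNA per cell cannot be told apart.

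All 9 genes passed the filter on low values (at least 1 FPKM in at least 3 samples), Tgfb2 with 4 samples at or above it and Tgfb3 with 5. All 9 had a higher mean log2 level in BBR than in SASP, but the signs of Bmp2, Bmp5 and Tgfb1 turned when samples were scaled by the median ratio of all genes, and those of Bmp5 and Tgfb1 with quantile normalization. Of the 12072 genes tested, 60.8% were higher in BBR. The median log2 fold change of the 9 was 0.53, beside 0.097 over all tested genes. Tgfb3 was the only one of the 9 that passed the test, an adjusted p under 0.05 in limma, a linear model fitted across all tested genes. That is 11.1% of the 9, against 8.86% of tested genes called in either direction and 3.82% called higher in BBR. At an unadjusted limma p of at most 0.05, the threshold of the study, Tgfb2 and Tgfb3 passed, 22.2% of the 9 against 31.8% of tested genes. The same 2 genes had every BBR value above every SASP value, which held for 21.3% of tested genes.

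**Figure D1:**
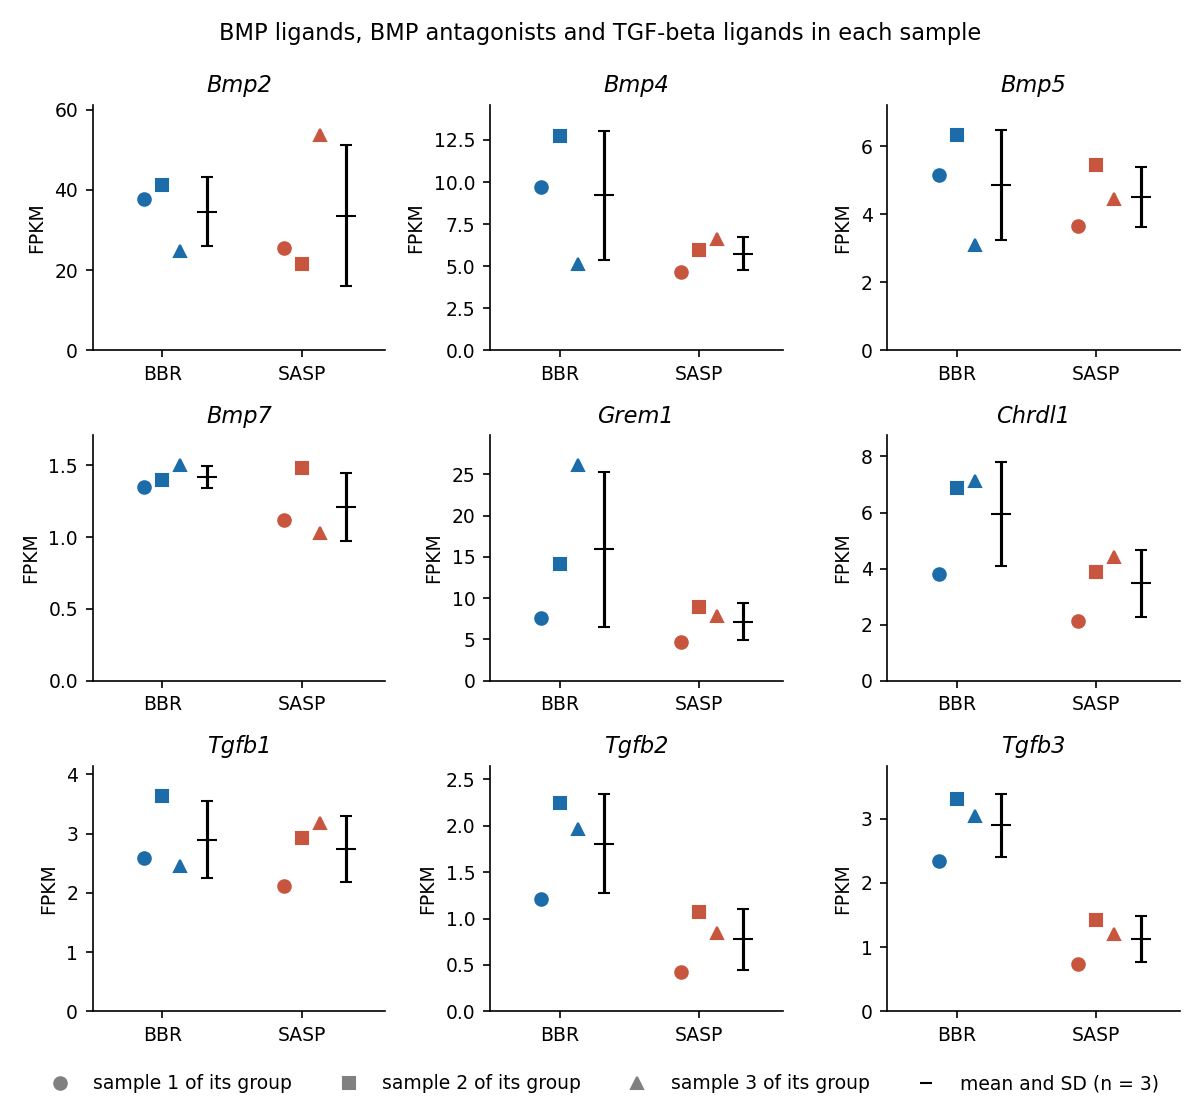
Expression in FPKM (vertical axis, linear, from 0, its own scale per gene) of the 9 genes in the BBR (blue) and SASP (red) samples; each symbol is 1 sample, and the bar is the mean with the SD (n = 3). The groups are separate for Tgfb2 and Tgfb3 and overlap for the other 7 genes.

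The levels spanned a wide range. In BBR, the mean level fell in the order Bmp2 (34.5 FPKM), Grem1 (15.9), Bmp4 (9.21), Chrdl1 (5.94), Bmp5 (4.85), Tgfb3 (2.90), Tgfb1 (2.90), Tgfb2 (1.81) and Bmp7 (1.42). Only the Tgfb1 and Tgfb2 neighbours in that order had ranges over samples that did not overlap. In SASP, the order was Bmp2 (33.6 FPKM), Grem1 (7.14), Bmp4 (5.75), Bmp5 (4.51), Chrdl1 (3.47), Tgfb1 (2.74), Bmp7 (1.21), Tgfb3 (1.13) and Tgfb2 (0.777). There, Bmp2 stood above Grem1 and Tgfb1 above Bmp7 without overlap, and the other neighbours overlapped. Bmp2 thus had the highest mean of the 9 under either drug, at the 80.8th percentile of tested genes by its mean. In BBR sample 3, though, Grem1 (26.1 FPKM) was above Bmp2 (24.8 FPKM). Tgfb3 was above Tgfb1 in 1 of 3 BBR samples and below it in all 3 SASP samples.

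The promoters of 5 of the 9 genes were matched by Entrez gene identifier in the RefSeq table (GRCm38.p6): Bmp4, Bmp5, Grem1, Tgfb1 and Tgfb2. The 250 bases before the transcription start are shown for 3 of them, because they are the ligand with the largest fold change among those matched, the BMP ligand with the largest fold change, and the antagonist that varied most between samples. Capitals mark 3 motifs looked for on both strands after the expression values were known: CACGTG (an E-box bound by clock and MYC-family factors), GGGCGG (the GC box) and TATAAA (the TATA box). No 2 motifs shared letters in the sequences shown.
Tgfb2, chr1:186705990-186706239, minus strand: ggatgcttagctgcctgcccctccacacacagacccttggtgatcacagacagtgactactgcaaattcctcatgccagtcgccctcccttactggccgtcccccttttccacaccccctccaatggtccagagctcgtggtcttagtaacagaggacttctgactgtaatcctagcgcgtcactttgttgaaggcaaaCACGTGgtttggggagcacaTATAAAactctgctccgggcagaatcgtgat
Bmp4, chr14:46390670-46390919, minus strand: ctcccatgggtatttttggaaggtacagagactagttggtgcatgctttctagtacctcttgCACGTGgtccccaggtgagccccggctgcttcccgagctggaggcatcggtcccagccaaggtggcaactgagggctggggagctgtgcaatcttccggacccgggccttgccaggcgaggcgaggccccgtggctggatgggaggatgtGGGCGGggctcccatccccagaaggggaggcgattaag
Grem1, chr2:113758649-113758898, minus strand: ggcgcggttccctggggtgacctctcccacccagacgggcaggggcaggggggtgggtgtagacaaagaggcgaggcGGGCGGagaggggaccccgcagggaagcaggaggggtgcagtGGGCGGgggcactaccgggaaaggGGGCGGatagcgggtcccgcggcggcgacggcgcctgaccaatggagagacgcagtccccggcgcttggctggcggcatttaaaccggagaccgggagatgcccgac
The E-box was in 2 of the 5 promoters, Tgfb2 and Bmp4, and in 7.15% of the 32851 mouse promoters of 300 bases in the table. The GC box was in Bmp4, in Grem1 (3 copies) and in Tgfb1 (6 copies), and in 35.7% of all promoters. The TATA box was in Tgfb2 alone of the 5, beginning 31 bases before the start, and in 13.6% of all promoters. The Bmp5 window held none of the 3. A match describes the letters of the window only.

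Among the BMP ligands, Bmp2, which in the colon is made by the surface epithelium and stromal cells, was at 37.6, 41.1 and 24.8 FPKM in BBR samples 1, 2 and 3. It was at 25.5, 21.5 and 53.7 FPKM in SASP samples 1, 2 and 3. The highest value was in SASP sample 3 and the lowest was also in SASP, so the BBR values lay inside the SASP range. The log2 fold change was 0.12 (SE 0.35, 95% interval -0.71 to 0.95, limma adjusted p = 0.831). Bmp2 made up 66.8% to 71.7% of the summed FPKM of the 4 BMP ligands in BBR and 62.6% to 81.7% in SASP.

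Bmp4, a ligand of the subepithelial mesenchyme, was at 9.72, 12.8 and 5.15 FPKM in the BBR samples and at 4.68, 5.95 and 6.61 FPKM in the SASP samples. BBR samples 1 and 2 were above every SASP sample, and BBR sample 3 lay inside the SASP range. The log2 fold change was 0.53 (SE 0.29, 95% interval -0.17 to 1.23, limma adjusted p = 0.253). Without BBR sample 3 it was 0.86 (limma adjusted p = 0.0149), a fit in which 33.6% of tested genes were called, Tgfb3 and Bmp4 among them. With samples weighted by their own spread (array weights) it was 0.57 (limma adjusted p = 0.00519). There 59.0% of tested genes were called, with the same 2 of the 9. The weights were 5.32 for BBR sample 1 and 4.85 for SASP sample 3, against 0.1285 to 0.7461 for the other samples. The weighted fit thus rests mostly on BBR sample 1 and SASP sample 3. Without BBR sample 2 the log2 fold change of Bmp4 was 0.28 (limma adjusted p = 0.561). Over the 6 samples left out in turn it ran from 0.28 to 0.86.

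Bmp5, a ligand of the same stromal layer, was at 5.15, 6.31 and 3.10 FPKM with BBR, against 3.66, 5.43 and 4.43 FPKM with SASP. BBR held both the highest and the lowest value. Bmp7, an epithelial and stromal ligand, was the least expressed and steadiest in BBR, at 1.35, 1.40 and 1.5 FPKM, and was at 1.12, 1.48 and 1.03 FPKM in SASP. SASP sample 2 lay within the BBR range and the other two SASP samples below it. The log2 fold changes were 0.06 for Bmp5 (SE 0.24, 95% interval -0.51 to 0.63, limma adjusted p = 0.877) and 0.13 for Bmp7 (SE 0.14, 95% interval -0.19 to 0.46, limma adjusted p = 0.527). These intervals leave room for a difference in either direction.

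Of the antagonists, Grem1, whose product gremlin 1 binds BMP2, BMP4 and BMP7 and is made by stromal cells at the crypt base and in the muscle, was at 7.63, 14.1 and 26.1 FPKM in BBR. It was at 4.66, 8.97 and 7.79 FPKM in SASP. BBR samples 2 and 3 were above all SASP samples, and BBR sample 1 lay inside their range. The highest value was 5.60 times the lowest over the 6 samples, the widest spread among the 9 genes. The log2 fold change was 0.94 (SE 0.42, 95% interval -0.04 to 1.93, limma adjusted p = 0.171). It was 0.53 without BBR sample 3, 1.35 without BBR sample 1 and 0.14 with array weights (limma adjusted p = 0.598). Those weights rest mostly on BBR sample 1 (7.63 FPKM) and SASP sample 3 (7.79 FPKM), and BBR sample 3 has the lowest weight.

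Chrdl1, whose product chordin-like 1 binds BMP4 and other BMPs, was at 3.81, 6.89 and 7.12 FPKM with BBR, against 2.14, 3.87 and 4.40 FPKM with SASP. As with Grem1, BBR sample 1 was inside the SASP range and the other BBR samples above it. The log2 fold change was 0.63 (SE 0.28, 95% interval -0.03 to 1.30, limma adjusted p = 0.172). It was 0.40 without SASP sample 1 and 0.02 with array weights (limma adjusted p = 0.927). The 4 ligands summed to 4.71, 2.93 and 1.04 times the 2 antagonists in BBR and to 5.14, 2.68 and 5.40 times in SASP. BBR sample 3 had by far the lowest ratio, and the other BBR samples lay within the SASP range. The ratio of Bmp4 to Grem1 was 1.27, 0.904 and 0.197 in BBR and 1.00, 0.663 and 0.849 in SASP. In BBR sample 3, Bmp2, Bmp4, Bmp5 and Tgfb1 were at their lowest of the BBR samples and Grem1, Chrdl1 and Bmp7 at their highest.

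The TGF-β ligands differed among themselves. Tgfb1, the isoform most associated with immune cells, was at 2.59, 3.64 and 2.46 FPKM with BBR, against 2.11, 2.93 and 3.18 FPKM with SASP. The groups overlapped. The log2 fold change was 0.06 (SE 0.18, 95% interval -0.37 to 0.49, limma adjusted p = 0.844).

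Tgfb2, an isoform of mesenchyme and epithelium, was at 1.21, 2.25 and 1.96 FPKM with BBR, against 0.42, 1.07 and 0.84 FPKM with SASP. Every BBR value was above every SASP value, though BBR sample 1 and SASP sample 2 were close. The log2 fold change was 0.66 (SE 0.21, 95% interval 0.15 to 1.16), with an unadjusted limma p of 0.0175 and an adjusted p of 0.0903 that missed the threshold. With array weights it was 0.35 (limma adjusted p = 0.0581).

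Tgfb3, an isoform of mesenchymal cells, was at 2.35, 3.31 and 3.04 FPKM with BBR, against 0.74, 1.43 and 1.21 FPKM with SASP. The lowest BBR sample was above the highest SASP sample. Tgfb3 rose under BBR relative to SASP by 0.88 on the log2(FPKM + 1) scale (SE 0.18, 95% interval 0.45 to 1.31, limma adjusted p = 0.0351). Adding 1 FPKM compresses low values: the ratio of the mean FPKM was 2.57 for Tgfb3 and 2.33 for Tgfb2. Leaving out each sample in turn gave log2 fold changes of 0.74 to 0.99 for Tgfb3, higher in BBR each time, and the limma adjusted p was 0.0248 without BBR sample 3 but 0.057 to 0.118 without any other sample, so the call was lost in those 5 fits. With 3 samples against 3, an exact two-sided permutation test of a gene cannot give a p below 0.1.

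As shares of the summed TGF-β FPKM, Tgfb1 took 42.1%, 39.6% and 33.0% in BBR and 64.5%, 54.0% and 60.8% in SASP. Tgfb3 took 38.2%, 36.0% and 40.8% in BBR and 22.6%, 26.3% and 23.1% in SASP. Neither share overlapped between groups. The share of Tgfb2 was 19.7% to 26.3% in BBR and 12.8% to 19.7% in SASP, so the groups met at one value. These shares add to 100% within a sample, so they are not independent of each other. Because the isoforms are in the same sample, scaling of a sample leaves the shares as they are.

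**Figure D2:**
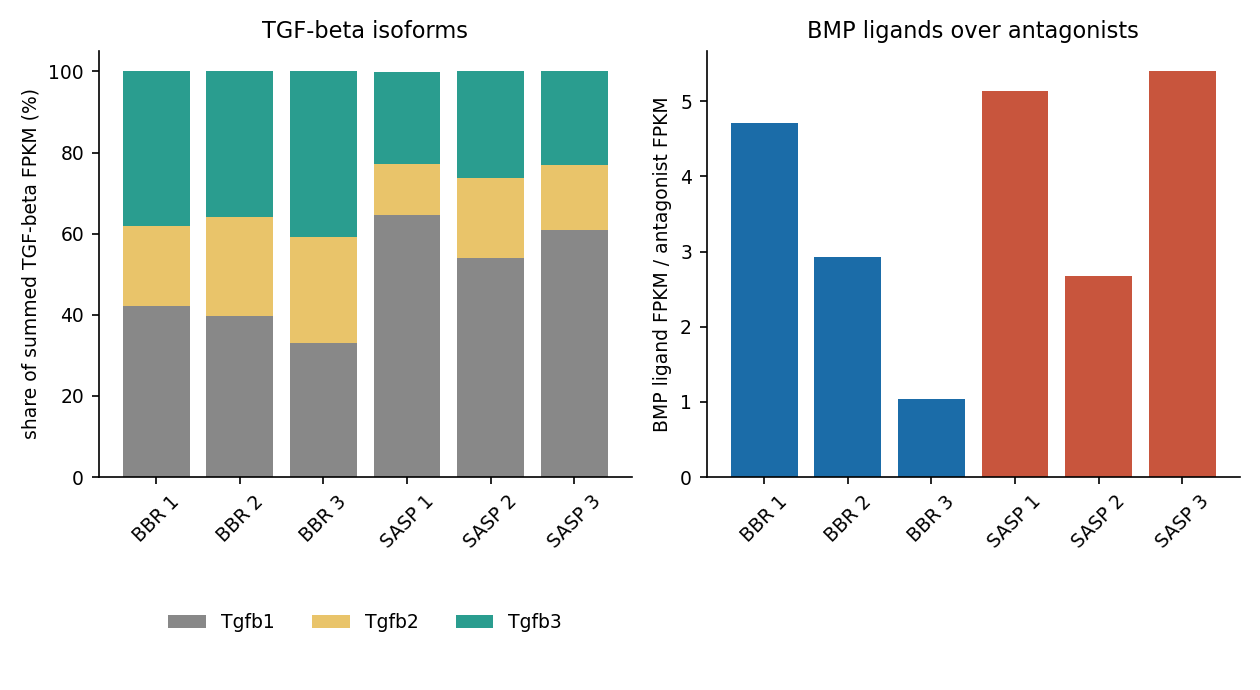
Left, share (%) of the summed FPKM of the TGF-β ligands taken by Tgfb1, Tgfb2 and Tgfb3 in each sample; right, summed FPKM of the 4 BMP ligands divided by that of the 2 antagonists. Tgfb1 takes 33.0% to 42.1% in BBR and 54.0% to 64.5% in SASP, and the ratio on the right is lowest in BBR sample 3 at 1.04.

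Around the 9 genes, 7 lists of pathway genes held 99 genes, of which 94 were in the table and 61 were tested. Of these 61, 4 rose and 0 fell at a limma adjusted p under 0.05, or 6.56%. Of all tested genes, 8.86% were called in either direction and 3.82% were called higher in BBR. Their median log2 fold change was 0.37, and 51 of the 61 were higher in BBR, 83.6% against 60.8% of tested genes. With median-ratio scaling 47 of the 61 were higher, 6 rose and 47.7% of all tested genes were higher. With quantile normalization 50 were higher, 7 rose and 54.7% of all tested genes were higher.

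Among other ligands of the superfamily, 4 of 26 listed genes were tested and 2 rose. Bmp3, an atypical BMP that opposes BMP signalling, was at 18.2, 17.7 and 12.8 FPKM with BBR, against 3.35, 4.58 and 5.33 FPKM with SASP (log2 fold change 1.67, SE 0.19, limma adjusted p = 0.00835). Gdf15, a stress-induced ligand, was at 4.46, 3.60 and 3.71 FPKM with BBR, against 0.50, 1.53 and 0.81 FPKM with SASP (log2 fold change 1.37, SE 0.21, limma adjusted p = 0.0185). Both were separate between the groups, and both were larger on the log2 scale than any of the 9. Without any 1 of the 6 samples the call of Bmp3 held (limma adjusted p 0.00197 to 0.0423), while that of Gdf15 was lost without BBR sample 1, SASP sample 1 or SASP sample 3 (up to 0.0859). Bmp6, a BMP of the same subgroup as Bmp5 and Bmp7, had a mean of 2.53 FPKM with BBR, against 1.21 FPKM with SASP (limma adjusted p = 0.0746).

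Of 9 tested secreted antagonists beside Grem1 and Chrdl1, 1 rose, and 6 were higher and 3 lower in BBR. Fstl3, a follistatin-like binder of activins and myostatin, rose by 0.89 on the log2 scale (SE 0.20, limma adjusted p = 0.0418). It was at 3.59, 3.62 and 5.54 FPKM with BBR, against 1.32, 2.0 and 2.11 FPKM with SASP. Of the fits without 1 sample, the call held in the fit without BBR sample 3, with a limma adjusted p of 0.0812 to 0.149 without any other sample. Crim1, a transmembrane BMP binder, had a log2 fold change of 0.74 (limma adjusted p = 0.0504), and Nbl1, a secreted member of the DAN family, one of 1.17 (limma adjusted p = 0.0636), both without overlap and neither past the threshold. The calls on this list changed with scaling. With quantile normalization and median-ratio scaling, Crim1 (limma adjusted p = 0.0260 and 0.0338) and Nbl1 (0.0460 and 0.0445) passed and Fstl3 (0.0599 and 0.0526) did not.

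All 14 tested receptors and co-receptors were higher in BBR (13 with either other scaling) and 0 passed the test, with a median log2 fold change of 0.30. At an unadjusted limma p of at most 0.05, only Tgfbr2 and Acvr1 of the 14 passed, while 31.8% of all tested genes did. Tgfbr2, the type II receptor for TGF-β, was at 27.5, 33.3 and 31.7 FPKM with BBR, against 19.4, 24.3 and 23.1 FPKM with SASP (log2 fold change 0.45, limma adjusted p = 0.0663). Acvr1, a type I receptor for BMPs and activins, had a log2 fold change of 0.37 (limma adjusted p = 0.0903), and Bmpr2, the type II receptor for BMPs, one of 0.26 (limma adjusted p = 0.175). These were separate between groups, with small folds.

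Of 11 tested SMADs and cofactors, 8 were higher and 3 lower in BBR (7 and 4 with median-ratio scaling). In the reported fit 0 passed, and with quantile normalization Ski did (limma adjusted p = 0.0487). Ski, a co-repressor of SMADs, had the smallest p, with a log2 fold change of 0.49 (limma adjusted p = 0.0930). Smad5, a BMP-responsive SMAD, had one of 0.44 (limma adjusted p = 0.126), and Smad2, a TGF-β-responsive SMAD, one of 0.25 (limma adjusted p = 0.182).

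Of 11 tested genes for latency and activation, 9 were higher and 2 lower in BBR (8 and 3 with either other scaling), and 0 passed. Itgb6, the β6 subunit of an epithelial integrin that activates latent TGF-β, was the only gene of the 61 with every BBR value below every SASP value. It was at 5.33, 6.07 and 7.34 FPKM with BBR, against 16.9, 9.22 and 10.4 FPKM with SASP (log2 fold change -0.83, limma adjusted p = 0.0658). Bmp1, a protease that cleaves procollagens and chordin, had a log2 fold change of 0.70 (limma adjusted p = 0.0723), and Ltbp3, a latent TGF-β binding protein, one of 0.82 (limma adjusted p = 0.0843).

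Among 8 tested BMP target genes, 6 were higher and 2 lower in BBR (5 and 3 with median-ratio scaling, 7 and 1 with quantile normalization). In the reported fit 0 passed, and with either other scaling Id4 did. Id4, an inhibitor of bHLH factors, was at 7.68, 11.4 and 6.74 FPKM with BBR, against 1.57, 3.58 and 4.39 FPKM with SASP (log2 fold change 1.24, limma adjusted p = 0.0535, and 0.0395 with median-ratio scaling and 0.0347 with quantile normalization). The inhibitory SMAD genes Smad7 (log2 fold change 0.43, limma adjusted p = 0.205) and Smad6 (0.37, limma adjusted p = 0.398) overlapped between groups. So did Id1, the most used BMP readout, named after its values were seen, at 124, 104 and 262 FPKM with BBR, against 191, 116 and 181 FPKM with SASP.

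Of 9 tested TGF-β target genes, 8 were higher and 1 lower, and 1 rose. Col1a1, a chain of type I collagen, was at 19.4, 26.3 and 22.5 FPKM with BBR, against 8.02, 15.2 and 11.5 FPKM with SASP (log2 fold change 0.95, SE 0.23, limma adjusted p = 0.0481). Its partner chain Col1a2 had a log2 fold change of 0.80 (limma adjusted p = 0.0628), and Ccn2, a matricellular protein, one of 1.17 (limma adjusted p = 0.0813), with BBR sample 2 at 23.2 FPKM and the other BBR samples at 9.02 and 8.70 FPKM. Each was separate between groups. The call of Col1a1 was lost without BBR sample 1 or 2 or SASP sample 1 or 3 (limma adjusted p up to 0.142), and with a pseudocount of 0.1 (0.0515) or no variance trend (0.0528). Col1a1 is also a gene of fibroblasts in general.

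**Figure D3:**
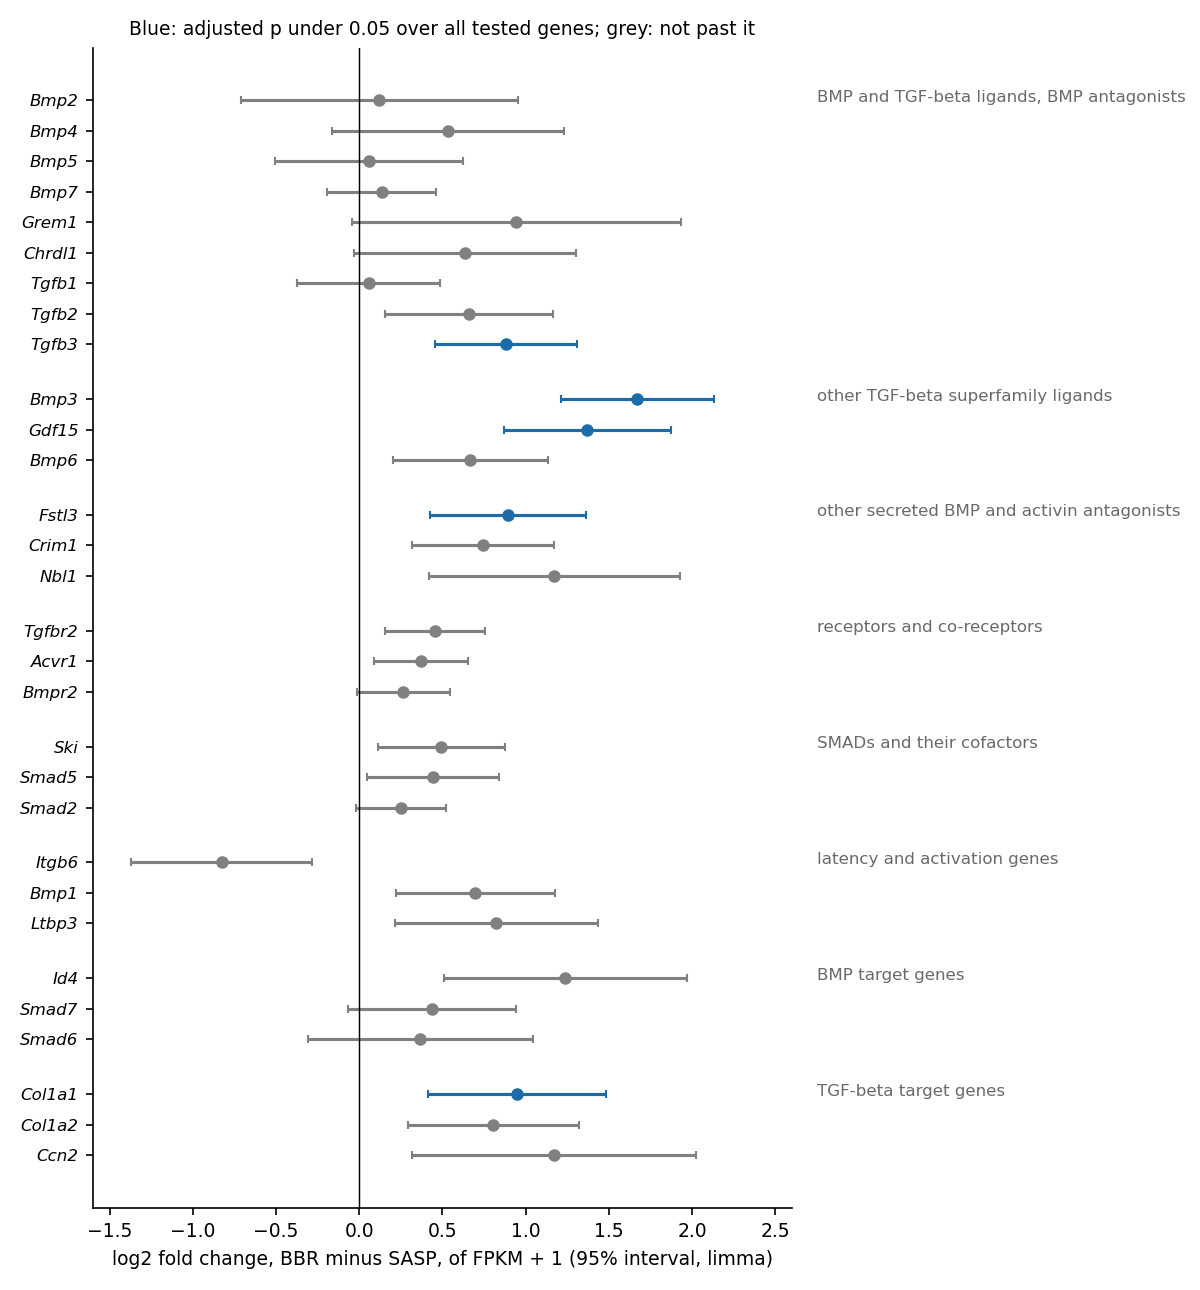
Log2 fold change of FPKM + 1 (horizontal axis, BBR minus SASP) with the 95% limma interval for the 9 genes and the 3 genes with the smallest p in each pathway list (Smad7 is on both target lists). Blue marks an adjusted p under 0.05: Tgfb3, Bmp3, Gdf15, Fstl3 and Col1a1.

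Markers of stromal cells were also higher in BBR. For comparison, 60.8% of all tested genes were higher in BBR and 3.82% were called higher. Of 10 fibroblast markers, 10 were higher in BBR and 4 rose, among them Thy1 (log2 fold change 0.84, limma adjusted p = 0.0399). Another of the 4 was Col1a1, already counted among the TGF-β targets. The summed level of the 10 markers was 329 to 448 FPKM in BBR and 157 to 255 FPKM in SASP. All 8 smooth muscle markers were higher in BBR and 0 passed, with a summed level of 2755 to 6554 FPKM in BBR and 697 to 2198 FPKM in SASP. Of 4 tested subepithelial telocyte markers, 4 were higher and F3 rose (log2 fold change 0.76, limma adjusted p = 0.0242). The 6 listed telocyte markers summed to 60.3 to 66.3 FPKM in BBR and 33.2 to 44.1 FPKM in SASP. Most of this was F3, with means of 42.4 FPKM and 24.8 FPKM. The 2 untested ones overlapped between groups: Foxl1 was lower in BBR (mean 0.467 against 0.517 FPKM) and Gli1 higher (0.9 against 0.637 FPKM). None of these 3 lists overlapped in its summed level. Endothelial markers summed to 14.4 to 26.6 FPKM in BBR and 7.17 to 10.1 FPKM in SASP, with 5 of 5 higher and Emcn risen (log2 fold change 0.83, limma adjusted p = 0.0351).

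In the opposite direction, all 5 leukocyte markers were lower in BBR and 0 passed, with sums of 18.2 to 31.4 FPKM in BBR and 30.4 to 66.5 FPKM in SASP. Of 5 tested macrophage markers, 3 were higher and 2 lower (2 and 3 with median-ratio scaling, 1 and 4 with quantile normalization), and the 1 tested T cell marker was higher. Epithelial markers were mixed, with 4 higher and 3 lower (1 and 6 with median-ratio scaling), Krt18 risen (log2 fold change 0.75, limma adjusted p = 0.0163) and Vil1 fallen (-0.55, limma adjusted p = 0.0327). The 3 tested enteric glia and neuron markers were higher in BBR, and the sums overlapped at 11.2 to 34.5 FPKM in BBR and 6.86 to 16.1 FPKM in SASP. No marker on these lists was at 0 in all samples. The calls of Thy1, F3, Emcn, Krt18 and Vil1 held without BBR sample 3 and were lost without BBR sample 1 (limma adjusted p up to 0.144 over the samples left out). The part of these cell types in the results for the 9 genes was not tested. Only smooth muscle was entered in a model, with the limit given below.

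Smooth muscle was entered in the model as a covariate, the mean log2(FPKM + 1) of its 8 markers. This score was 7.44, 7.64 and 8.63 in BBR and 5.61, 7.20 and 6.81 in SASP, highest in BBR sample 3 and lowest in SASP sample 1. With the score in the model, the log2 fold change was -0.11 for Grem1 (SE 0.35), 0.02 for Chrdl1 (SE 0.31) and 0.27 for Tgfb2 (SE 0.27). It was 0.56 for Tgfb3 (SE 0.23) and 0.76 for Bmp4 (SE 0.45). Of the 9, 0 passed (Tgfb3, limma adjusted p = 0.285). The scores of the groups did not overlap, so the drug and the muscle content cannot be fully told apart. In this fit 18 of all tested genes passed, and Bmp3, Gdf15, Fstl3 and Col1a1 did not. Their log2 fold changes in it were 1.64 for Bmp3 (SE 0.31), 1.07 for Gdf15 (SE 0.3), 0.44 for Fstl3 (SE 0.21) and 0.5 for Col1a1 (SE 0.27). Without the covariate these were 1.67 (SE 0.19), 1.37 (SE 0.21), 0.89 (SE 0.2) and 0.95 (SE 0.23).

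**Figure D4:**
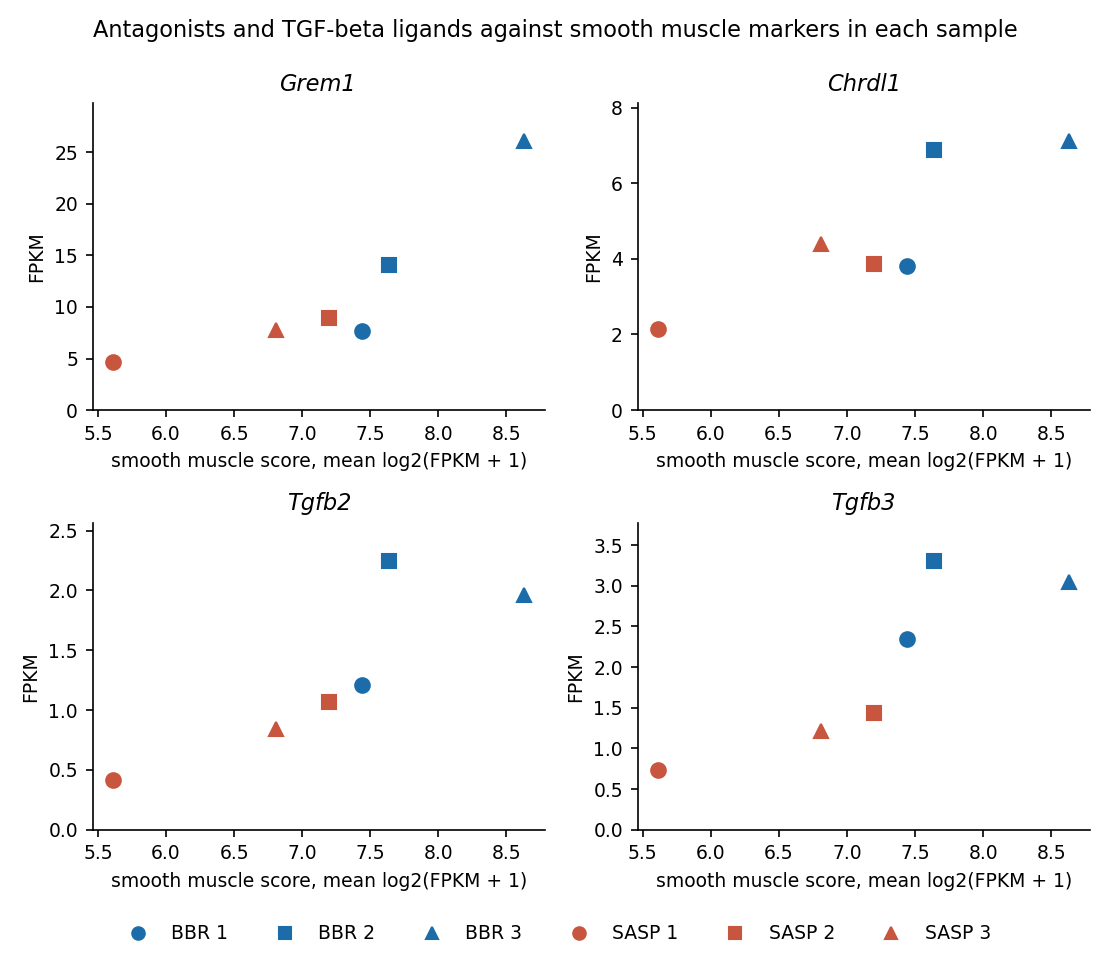
FPKM (vertical axis, linear, from 0) of Grem1, Chrdl1, Tgfb2 and Tgfb3 against the smooth muscle score (horizontal axis) in the 6 samples, BBR in blue and SASP in red. For all 4 genes SASP sample 1 has the lowest level and the lowest score, while BBR sample 3, with the highest score of 8.63, is highest for Grem1 and Chrdl1 only.

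The genes whose pattern over the 6 samples was most like each of the 9 were found by Pearson's r of log2(FPKM + 1) among tested genes at or above the median level, as a description. For Tgfb3 they were Rcn3, a calcium-binding protein of the endoplasmic reticulum (r = 0.996), and Srebf2, the sterol-regulating transcription factor (r = 0.995). For Tgfb2 they were Axl, a receptor tyrosine kinase (r = 0.995), and Clmp, an adhesion molecule (r = 0.993). All of these genes, like both ligands, were lowest in SASP sample 1 and highest in BBR sample 2.

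Grem1 was most like Plpp1, a lipid phosphatase (r = 0.997), and Vip, the gene of a neuropeptide of enteric neurons (r = 0.989). Vip was at 9.42, 24.6 and 71.0 FPKM with BBR, against 4.01, 17.2 and 10.9 FPKM with SASP, and it ranked the 6 samples in the same order as Grem1. Chrdl1 was most like Rbpms, an RNA-binding protein of smooth muscle (r = 0.997), and Psd (r = 0.995). Bmp4 was most like Zcchc7 (r = 0.998) and Csnk1d (r = 0.997), Bmp5 like Npepl1 (r = 0.997) and Zmat5 (r = 0.996), Bmp7 like Psmd5 (r = 0.968) and Napg (r = 0.956), and Tgfb1 like Slc29a1 (r = 0.975) and Nap1l4 (r = 0.966). Bmp2 had the least company: its nearest genes were 2900026A02Rik (r = 0.960) and Pik3c2b (r = 0.919), and 1 gene passed r = 0.95, against 118 for Tgfb3 and 204 for Bmp4. With 6 samples and so many genes, high r values arise readily, and the samples share depth and tissue composition.

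**Figure D5:**
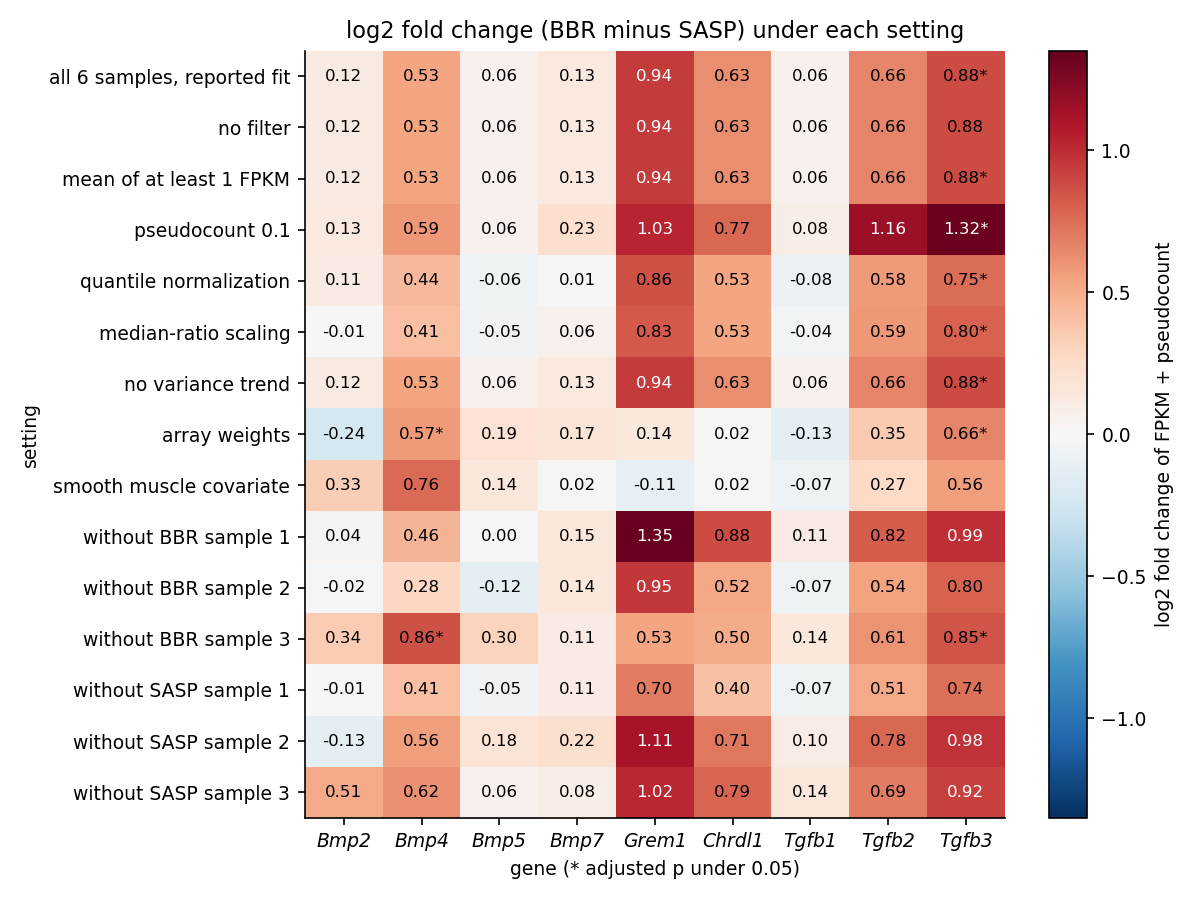
Log2 fold change (BBR minus SASP, colour and printed value) of the 9 genes in the reported fit and 14 other settings; an asterisk marks an adjusted p under 0.05. Tgfb3 is positive in every row (0.56 to 1.32), while Bmp2, Bmp5 and Tgfb1 change sign between rows and Grem1 is below 0 (-0.11) with the smooth muscle covariate only.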

How the data were processed

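RNA of DSS-treated colorectal samples was sequenced in 3 BBR and 3 SASP samples, grouped by the treatment labels. The authors deposited 1 table of FPKM values per gene, with Entrez identifiers and symbols. The submitters' processing notes name Bowtie2 (2.2.5), RSEM (1.2.12) and the mm9 build, while the table itself holds no coordinates. The labels name a TruSeq kit, and the published methods name rRNA depletion and single-end reads, so the library type is uncertain. Those methods list berberine samples but no sulfasalazine samples. Whether library preparation differed between the groups is thus not known, and such a difference could not be told apart from the drug. FPKM carries no counts, and RSEM divides multi-mapped reads between genes.

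Genes with at least 1 FPKM in at least 3 of 6 samples (12072 of 18268) were compared on the log2(FPKM + 1) scale with limma 3.58.1 in R 4.3.3 (moderated variances with a trend, no covariate), with Benjamini-Hochberg adjustment over all tested genes and a threshold of 0.05. The script was tested on simulated data. Depth was estimated from transcripts under 1500 bases detected in 1 sample, taken as 1 read, and covers counting error only. Promoters were taken from RefSeq (GRCm38.p6).

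The members, the gene lists and the tests were chosen with earlier results of these data known. The 9 genes were given in full. From each pathway list the 3 tested genes with the smallest p were named, from marker lists up to 3, and for likeness the 2 genes with the highest r. Alternatives were the filter, the pseudocount, quantile and median-ratio scaling, no variance trend, array weights, a smooth muscle covariate, the threshold of the study and leaving out each sample.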

Additional observations from a re-analysis of the deposited data

How the results depend on the processing

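Of the 135 alternative values for the 9 genes, 109 kept their direction and side of the threshold, 3 passed it newly, 7 lost it and 16 turned sign. Tgfb3 was higher in BBR under every alternative run (0.56 to 1.32). It lost its call with no filter (limma adjusted p = 0.0603), where more genes were tested, with the smooth muscle covariate and without any sample other than BBR sample 3. Of the 9 genes, 0 passed with no filter and with the covariate, and 2 passed with array weights (Tgfb3 and Bmp4), with the threshold of the study (Tgfb2 and Tgfb3) and without BBR sample 3. Leaving out each sample gave 0 to 2. The cause of these shifts was not tested.

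Signs turned for Bmp2, Bmp5 and Tgfb1, whose values were near 0, and for Grem1, whose value was 0.94. Bmp2 was -0.01 with median-ratio scaling and -0.24 with array weights, with -0.13 to 0.51 over the samples left out. Bmp5 was -0.05 with median-ratio scaling and -0.06 with quantile normalization, with -0.12 to 0.30 over the samples left out. Tgfb1 was -0.08, -0.04, -0.13 and -0.07 with quantile normalization, median-ratio scaling, array weights and the covariate, with -0.07 to 0.14 over the samples left out. Grem1 was -0.11 with the covariate. Median-ratio scaling shifted the median of all tested genes by -0.117, so relative to all genes the median-ratio values of Bmp2, Bmp5 and Tgfb1 moved little. The shift was 0.025 with array weights and 0.017 with the covariate. Array weights, which rest mostly on BBR sample 1 and SASP sample 3, took Grem1 to 0.14, Chrdl1 to 0.02 and Tgfb2 to 0.35.

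Over all genes, 1069 passed (461 higher and 608 lower in BBR). The count was 591 with no filter, 1737 with quantile normalization, 1683 with median-ratio scaling (499 higher, 1184 lower), 7126 with array weights (4636 higher, 2490 lower), 18 with the covariate (2 higher, 16 lower) and 3837 at the threshold of the study (2224 higher, 1613 lower). It ran from 96 without SASP sample 3 to 4051 without BBR sample 3. The other 32 named genes never turned sign, though 64 of their values lost a call and 56 passed the threshold newly. No paired analysis was possible because the labels of the groups share no replicate numbers. FPKM keeps no counts, so the precision of low genes such as Tgfb2 and Bmp7 is limited by depth, which was estimated only roughly.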
